A study of Drosophila melanogaster with 3 samples.

Results

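Collier (Col, labelled kn in the list) is the single fly member of the COE family of transcription factors, and its vertebrate relatives are the EBF proteins. COE factors bind DNA as dimers at a palindromic site with the core CCCNNGGG. In the Drosophila embryo Col acts in head patterning, in progenitors of dorso-lateral muscles, in the lymph gland and in subsets of neurons. A gene can carry several enhancers, each active in its own cells, so a gene with several Col summits may be bound at several separate elements.

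The Col summits described here are those at gene labels that occur at least 2 times in the list of summits. The members were thus chosen by the number of summits called per label in the Col-IP, and not by their height. The label is the gene to which the authors assigned a summit. These members were 245 of the 559 summits (43.8%) and carried 95 of the 409 labels (23.2%). Chromatin immunoprecipitation and sequencing (ChIP-seq) was performed on chromatin of whole Drosophila melanogaster embryos at stages 13 to 14. The groups were a Col-IP, with a mix of 3 monoclonal antibodies against Col, a mock-IP, with an antibody against the HA tag, and input DNA, each of 1 library, and DNA of 2 independent IPs was pooled for each IP library. Bound complexes were eluted with recombinant Col protein, and contaminating plasmid sequence was removed computationally. The embryos of the IPs carried a lacZ reporter under a col enhancer whose Col site was replaced by the consensus, so DNA of this copy and of the endogenous enhancer of kn cannot be told apart in the list. Col is expressed in a small share of the cells of the embryo, and a summit therefore does not say in which cells Col was bound.

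The fold enrichment of a summit is a linear ratio given by the peak caller. With 1 library there was no spread between replicates, and the list carries no read counts, so the depth behind a summit is unknown. No test was run, since the number of summits of a label and their heights come from the same library. Intervals are 95% Wilson intervals over summits or labels for shares and 95% order-statistic intervals for medians, and they cover counting error only. Summits of 1 label share their gene and are not independent of each other.

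Of the 95 labels, 66 had 2 summits, 16 had 3, 7 had 4 and 3 had 5. The longest series were at Oaz with 6 summits, sli with 7 and sick with 9. The 29 labels with 3 or more summits held 113 of the members. At the border of the rule, the 132 summits of labels with 2 had a median fold enrichment of 2.80 (quartiles 2.41 and 3.72), against 2.77 (2.35 and 3.62) for the 314 single summits. When summits below a fold of 3 were removed before counting, 85 members at 36 labels were left.

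Predicted Col sites are shown first at sick, the longest series, at hth and OdsH, which differ in how many of their summits hold the full core, and at eya and ci, which have very close summits. The sites come from the MEME search in the supplementary list. Each is 15 bases long and lies within 100 bp of its summit, in dm3 coordinates. They are written 5′ to 3′ on the strand of that search, and their strand in the genome is not given. Capitals mark the bases that match the 6 specified bases of CCCNNGGG at its best placement. Summits are numbered by position along the arm.
sick summit 1 (chr2L:19802539-19802553): aattCCCatGaGggc
sick summit 2 (chr2L:19807228-19807242): aatgCCCaaGGGgga
sick summit 3 (chr2L:19829533-19829547): acctCCCctGGGgtg
sick summit 4 (chr2L:19829885-19829899): tgtgCCCaaGtGagg
sick summit 5 (chr2L:19831641-19831655): cattCCCttGGtgat
sick summit 6 (chr2L:19837147-19837161): aatcCCCctGGcaat
sick summit 7 (chr2L:19838809-19838823): aattCCacgGGGaag
sick summit 8 (chr2L:19893353-19893367): tggtCCCtgGaGggc
sick summit 9 (chr2L:19908159-19908173): agctCCCtaGaGatt
hth summit 1 (chr3R:6324747-6324761): gacgCCCcaaGGaca
hth summit 2 (chr3R:6339001-6339015): tattCCCccaGGatt
hth summit 3 (chr3R:6402169-6402183): aaatCCCcgaaGcgg
hth summit 4 (chr3R:6402686-6402700): aattCCCatttGggc
hth summit 5 (chr3R:6462400-6462414): tattCCCaaaGGtgc
OdsH summit 1 (chrX:17675916-17675930): gactCCCgtGGGtgc
OdsH summit 2 (chrX:17677715-17677729): gtgtCCCccGGGaaa
OdsH summit 3 (chrX:17693136-17693150): gattCCCtgGGGtgt
eya summit 1 (chr2L:6540597-6540611): agacCCCcaGGGatg
eya summit 2 (chr2L:6540991-6541005): taagCCCtgGGGtgc
ci summits 1 and 2 (chr4:81375-81389): gattCCCaaGaGact

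All 9 sites of sick differed from each other, as did those of every other label whose sites lie at different places. At sick 2 of the 9 held the full core, at hth 0 of 5 and at OdsH 3 of 3. Both summits of eya had a full core of their own. The summits of ci shared a single site with 5 of the 6 bases, and this was the only site shared by a pair of summits.

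**Figure D1:**
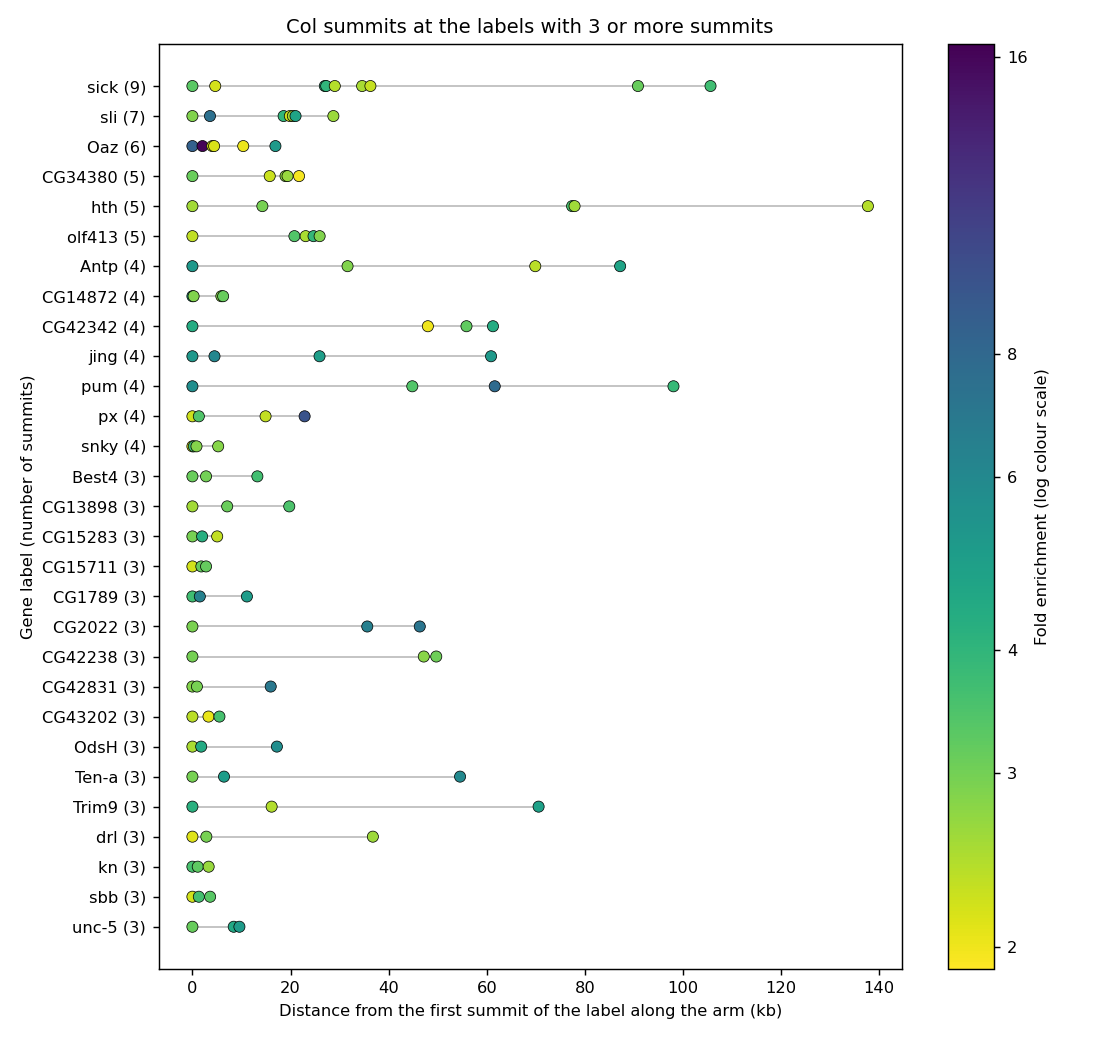
Position of each Col summit at the 29 labels with 3 or more summits, as distance in kb from the first summit of the label along the chromosome arm. Each point is 1 summit, its colour gives the fold enrichment on a log scale, and grey lines join the summits of a label. The series range from 2780 bp at CG15711 to 137680 bp at hth.

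The summits of a label lay from 70 bp to 115060 bp from the next one. Over the 150 pairs of adjacent summits the median distance was 4850 bp (interval 3120 to 7710), with quartiles of 1628 and 16190 bp. Of these pairs, 23 (15.3%, interval 10.4 to 22.0%) lay within 1 kb, 69 between 1 and 10 kb and 58 farther apart. With summits below 3 removed, the median distance was 10460 bp, and 8.16% of the pairs lay within 1 kb. When summits of a label within 1000 bp were merged, the median distance was 7670 bp (interval 4960 to 11760). No label had a summit of another label between its own. The authors gave a summit in an intron to the overlapping gene, other summits to the nearest gene start, and curated some by hand, so distance itself entered the labels. The nearest summit of another label was at a median of 45500 bp, and it was within 10 kb for 5 of the 95 labels. For 13 labels it was nearer than the widest step inside the label itself.

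**Figure D2:**
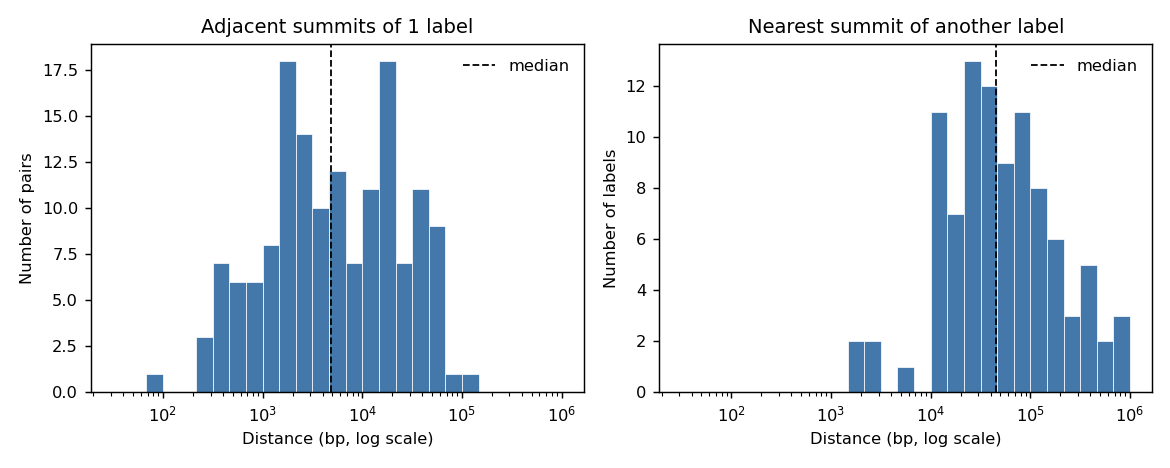
Left, distances in bp (log scale) between the 150 pairs of adjacent summits of 1 label. Right, distance from each of the 95 labels to the nearest summit of another label. Dashed lines are the medians, 4850 bp within a label and 45500 bp to another label.

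The whole spread of a label, from its first to its last summit, had a median of 10610 bp (interval 5050 to 16160). For 11 labels all summits lay within 1 kb, for 46 within 10 kb, and for 11 they were spread over more than 50 kb. The widest were hth (137680 bp), bru-3 (115060 bp), sick (105600 bp), pum (98050 bp) and Antp (87180 bp). Among labels with 3 or more summits the widest step took up a median of 72.5% of the spread (with 3 summits it takes at least 50% by construction). In 10 of these 29 labels the widest step took more than 80%.

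Of the 23 close pairs, those within 1 kb, the closest was at ci, the Hedgehog effector, with summits 70 bp apart and fold enrichments of 6.33 and 5.7. The next were at CG14872 (240 bp, 4.8 and 2.87), at sick (280 bp, 4.1 and 4) and at snky (290 bp, 2.09 and 3.68). Then followed CG6234, now named Dtg, with 360 bp (5.66 and 2.03), and a second pair of CG14872 with the same distance (2.78 and 3.13). The summits of a close pair differed by a median of 1.30 times, and by at least 2 times in 3 pairs. At eya, which encodes a phosphatase and coactivator, the summits were 370 bp apart with fold enrichments of 2.39 and 3.99. Their sites were 394 bp apart. Apart from ci, sites of close pairs were from 272 to 1033 bp apart. A full core was present at both summits in 4 close pairs, at 1 of them in 11 and at neither in 8. The close pairs fell on 20 labels, of which 11 had no summit outside 1 kb and 9 had further summits beyond it.

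The fold enrichment of the members ran from 1.95 to 16.17, with a median of 2.98 (interval 2.83 to 3.13), against 2.77 (2.65 to 2.88) for the single summits. At least 5 was reached by 36 of the 245 members (14.7%, interval 10.8 to 19.7%), while over the whole list the share was 12%. At least 3 was reached by 121 members (49.4%), against 44.9% of all summits. Both medians come from the list that also set the number of summits per label, and nothing further is read from them. Among the 95 labels, 27 had at least 1 summit of 5 or more, and only ci had all of its summits there. The summits of ci lie 70 bp apart and share 1 site, so they may not be separate. In 23 labels no summit reached 3.

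Within a label the strongest summit exceeded the weakest by a median of 1.45 times (interval 1.36 to 1.60). The ratio was at least 2 in 20 labels and under 1.2 in 25. It was largest at Oaz (8.00), followed by px (4.23), sli (3.41), CG6234 (2.79) and CG17349 (2.75). The smallest was at fas, where the summits had 3.43 and 3.41 and were 16360 bp apart. In 16 of the 29 labels with 3 or more summits, the strongest summit was the outermost on 1 side. Most of these 29 labels had 3 summits, of which only 1 is not outermost. Many such cases are thus given by position alone, and nothing is read from the count.

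**Figure D3:**
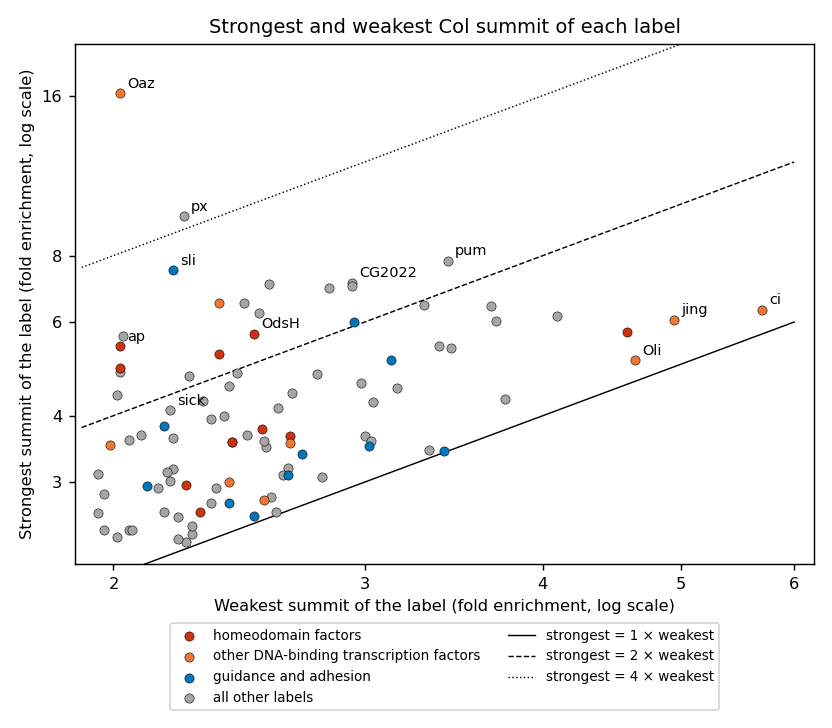
Strongest against weakest fold enrichment (both log scales) for each of the 95 labels. Colours give 3 of the gene lists, and lines mark ratios of 1, 2 and 4. Oaz stands highest (16.17 over 2.02), while ci (6.33 over 5.7) and Oli (5.08 over 4.64) lie near the line of ratio 1 at high values. The summits of ci are only 70 bp apart and share 1 site.

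The longest series differed in how height was distributed over them. At sick, which encodes a regulator of the actin cytoskeleton, the fold enrichments along the arm were 3.31, 2.19, 4.1, 4, 2.41, 2.53, 2.29, 3.13 and 3.68. The summits of sick formed a group of 5 between 26990 and 36280 bp from the first, with a pair on either side. At sli, the midline ligand of the Robo receptors, they were 2.87, 7.51, 4, 2.2, 2.52, 4.68 and 2.62. The highest summit of sli lay 3580 bp from the first, and the next 4 followed within 2430 bp of each other after a step of 15010 bp.

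Oaz encodes a zinc finger protein whose vertebrate relative binds EBF. In the RefSeq gene table its current symbol is L, while the list also holds a separate label L with 1 summit, 29330 bp from the nearest summit of Oaz. The study gave these labels separate gene identifiers, and both are kept as the list gives them. Under current names both labels thus carry the symbol L, and whether they stand for 1 gene was not tested. Its fold enrichments were 8.51, 16.17, 2.23, 2.15, 2.02 and 5.12 along 16920 bp. The first 2 summits of Oaz and the last one thus stood high, with 3 low ones between them. At px, a nuclear protein of wing vein patterning, the highest summit (9.48) was the last of the series, 7960 bp from its neighbour (2.32), and the others had 2.24 and 3.46.

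At jing and the 3 labels with 5 summits, the ratio of strongest to weakest was between 1.23 at jing and 1.69 at olf413. Among the other labels with 4 summits, px apart, it was between 1.73 at CG14872 and 2.28 at pum. At jing, a zinc finger factor, the 4 summits had 5.2, 6.06, 4.94 and 5.17 over 60870 bp. The 5 summits of hth, the homeodomain cofactor of the Hox proteins, had 2.56, 2.96, 3.57, 2.58 and 2.42 over the widest spread of all, with steps of 14260, 63130, 500 and 59790 bp. CG34380, now named smal, had 3.11, 2.26, 2.71, 2.66 and 1.95, with 4 of its 5 summits within the last 5970 bp. At olf413, which encodes a monooxygenase related to those of amine transmitter synthesis, they were 2.34, 3.43, 2.5, 3.95 and 2.85. All but the first of olf413 lay within 5140 bp, 20790 bp away from it, and 4 of its 5 sites held the full core.

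The remaining labels with 4 summits were Antp, pum, CG42342, CG14872 and snky. Antp, the Hox gene of the thorax, had higher summits at both ends (5.22 and 4.72) than inside (2.87 and 2.37). At pum, a translational repressor, the fold enrichments were 5.74, 3.43, 7.83 and 3.86, with steps of 44820, 16800 and 36430 bp. CG42342 had 4.37, 2.01, 3.23 and 4.38 over 61260 bp, so its ends were of nearly equal height. CG14872 consisted of 2 close pairs 5660 bp apart, and at snky, which acts in male fertility, 3 of the 4 summits lay within 830 bp.

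Among homeodomain factors, 10 of the 37 labels of the list had several summits (27.0%, interval 15.4 to 43.0%), against 23.2% of all labels. Besides hth and Antp these included OdsH with 3 summits, and abd-A, ap, Lim3, mirr, otp and tup with 2. The fold enrichments were 2.51, 4.45 and 5.7 at OdsH. At ap and otp the summits were unequal, with 5.4 and 2.02 over 4480 bp and with 2.02 and 4.91 over 1410 bp. The LIM factors Lim3 and tup had wide pairs, 2.66 and 3.66 over 13120 bp and 2.54 and 3.77 over 29340 bp. In mirr, of the Iroquois family, and in the Hox gene abd-A no summit reached 3. The study marks the gene assignment of the lower summit of ap and of abd-A as curated.

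For other DNA-binding factors the count was 9 of 34 labels (26.5%, interval 14.6 to 43.1%). Next to Oaz, jing and ci they included kn itself, with 3.55, 3.26 and 2.66 within 3310 bp and a full core at none of the predicted sites. The reporter copy of the col enhancer carried the consensus site, and its DNA may be included in summits of kn that lie in this enhancer. The study's coordinates for a shorter form of the enhancer take in the summit of 3.26. The basic helix-loop-helix factor Oli had 4.64 and 5.08, and sima, the fly HIF-alpha, had 2.37 and 6.51 over 20420 bp. Lower pairs were found at luna, of the Krüppel-like family (2.78 and 2.55), at the Sox factor Sox102F (3 and 2.41) and at the ETS factor Ets65A (3.53 and 1.99). The 51 summits of both kinds of factor held a full core in 17 cases (33.3%), against 42.0% of all members. Nuclear cofactors were represented by 5 of 19 labels. Besides px and eya these were sbb (2.2, 3.63 and 3.33 within 3610 bp), RYBP, a Polycomb group partner (6.46 and 3.3), and Snoo, a Smad corepressor (2.42 and 3.57).

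Guidance and adhesion genes had several summits in 11 of 36 labels (30.6%, interval 18.0 to 46.9%). The netrin receptor unc-5 had 3.13, 4.53 and 5.09 over 9580 bp. At drl, a Wnt receptor of axons, they were 2.11, 2.95 and 2.6, with the last summit 33940 bp away from the others. The teneurin Ten-a had 2.95, 5 and 5.99 over 54550 bp, and its relative Ten-m had 3.83 and 2.17 over 34520 bp. All 5 sites of the teneurins held the full core. The other pairs were at the cadherin CadN (2.51 and 2.59 over 41050 bp), at the immunoglobulin proteins klg (3.51 and 3.02 over 58310 bp) and ed (3.39 and 2.71 over 10500 bp), at comm3 (3.09 and 2.65), the secreted semaphorin Sema-2b (2.41 and 2.74) and fas. No summit of these 6 labels exceeded 3.51.

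RNA-binding genes gave 4 of 10 labels, with a median distance of 26805 bp between adjacent summits, against 4850 bp over all members. This median rests on 6 distances, 3 of them at pum. Apart from pum they were bru-3 (2.85 and 1.97), aret (2.92 and 2.36), both of the Bruno family, and the splicing factor mbl (2.61 and 4.13). Signalling genes gave 7 of 25 labels and a median of 26005 bp over 8 distances, and for the homeodomain factors the median was 13690 bp over 16. Of these, fz, the Frizzled receptor, had 3.38 and 5.41 over 40740 bp and Toll-6, a Toll family receptor, had 2.94 and 7 over 14920 bp. Trim9, a ubiquitin ligase, had 4.18, 2.44 and 4.82 over 70560 bp, each with a full core. The summits of pk, a planar polarity gene, were nearly equal (3.44 and 3.33), as were those of pxb (2.81 and 2.58). Gprk2, a kinase of G protein-coupled receptors, had 1.95 and 2.62. Rapgap1, which switches off Rap GTPases, had 2.17 and 2.64.

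In the list of neurotransmitters and peptides, 3 of 10 labels had several summits. VGlut, the vesicular glutamate transporter, had 3.71 and 6.02 over 10610 bp. Mip, the gene of the myoinhibitory peptides, had 3.09 and 2.63 over 3630 bp. With olf413, 8 of the 9 summits of these genes held a full core (88.9%), against 42.0% of all members. This was the list with the fewest summits, and the shares of the 7 lists ran from 32% upwards.

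**Figure D4:**
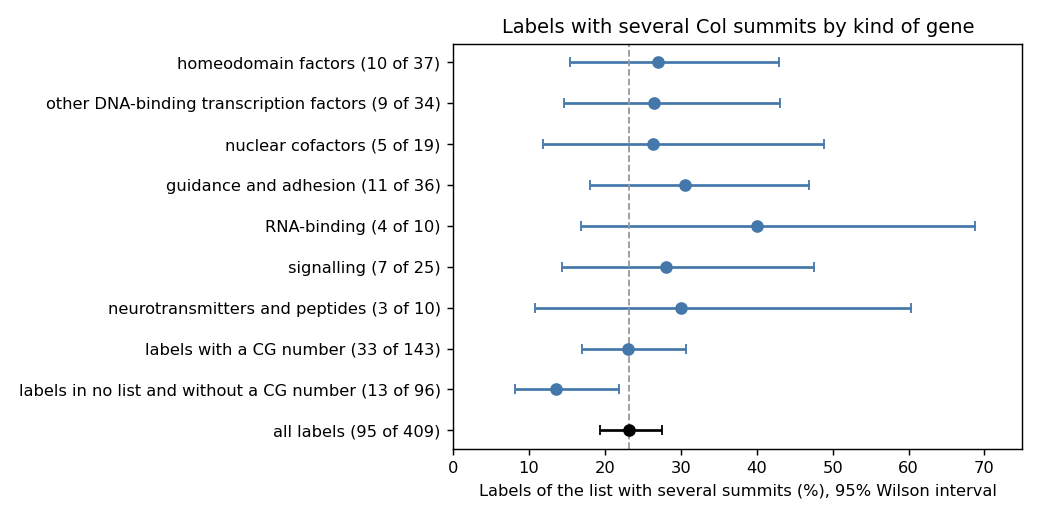
Share of the labels of each gene list that had several Col summits, with 95% Wilson intervals, and the share over all 409 labels (23.2%, dashed line). The numbers beside each name are the labels with several summits and all labels of the list in the file.

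Labels with a CG number, which carry a computed gene number in place of a name, were 33 of 143 (23.1%, interval 16.9 to 30.6%), and 9 of them now have a name. None of these 33 was in a gene list, those with a name now included. The counts of the lists may thus miss genes of their kind. The median distance between their adjacent summits was 3095 bp, against 4850 bp over all members, and 13 of their 48 adjacent pairs lay within 1 kb, against 23 of 150 over all members. The highest summits were at CG2022, now named plh (2.94, 6.51 and 7.12 over 46340 bp), CG17349 (7.07 and 2.57), CG42831 (2.83, 2.95 and 6.96), CG7255 (6.51 and 2.47) and CG1789 (3.68, 6.44 and 5.02). These labels, CG17349 excepted, were picked for their height. At CG42831 each summit had a full core within 9 bp. The 13 labels in none of the lists and without a CG number were 13.5% of their 96 labels (interval 8.09 to 21.8%). Besides sick and snky these were Best4, Cyp12e1, Hs6st, laf, Mipp1, msopa, Rca1, Rh50, SKIP, Trxr-2 and X11Lbeta, named to account for all labels, and no summit of the 13 exceeded 4.61.

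By chromosome arm, the members were 60 on 2L, 60 on 2R, 52 on 3L, 56 on 3R, 13 on the X and 4 on chromosome 4. These were between 42.7 and 50.8% of all summits of each large autosomal arm, and 24.5% (interval 14.9 to 37.6%) on the X. The 5 labels of the X included CG1789, OdsH, Ten-a and X11Lbeta. Of the 13 summits there, 11 reached 3, within a range of 2.51 to 6.44, while 44.9% of all summits reached 3. In the study's own table most single summits of the X also reached 3, so this height is not particular to the members. With summits below 3 removed, the X held 12.9% of the members, against 5.31% with all summits. The share of the X among all summits at this cut was not computed, so the rise is not read as a result about the members. Of the whole list, the X held 53 of 559 summits, and its members belong to only 5 labels.

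A predicted site was found for 240 of the 245 members (98.0%), against 542 of all 559 summits (97.0%). The study searched for the motif in windows centred on these same summits, so a site near a summit was likely by design. The full core was present at 103 members (42.0%, interval 36.0 to 48.3%), against 130 of the single summits (41.4%, 36.1 to 46.9%). With 1 mismatch allowed the share of members was 84.9%. A site with exactly 1 mismatch was present at 42.9% of the members (36.8 to 49.1%) and at 43.6% of the single summits (38.3 to 49.2%). The members and the single summits thus had similar values in both shares, and no test was run. The site centre lay within 25 bp of the summit in 57.6% of the members (51.3 to 63.6%) and in 66.2% of the single summits (60.8 to 71.2%). These intervals overlap, which does not show that the shares are equal, and the difference was not tested. Among the 95 labels, 17 had the full core at every summit, 49 at some and 29 at none. It was present at the strongest summit in 42 labels and at the weakest in 40. Between strongest and weakest summit, 22 labels held it only at the strongest and 20 only at the weakest.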

How the data were processed

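Libraries of Col-IP, mock-IP and input DNA were single-end sequenced, and the submitters' processing notes name CASAVA 1.8, Bowtie 0.12.7, deepTools and the dm3 build. The authors called summits with SISSRs on the Col-IP library of pooled IPs. Only the deposited list of summits was used. Its fold enrichment is a linear ratio made by the authors, whose background is not given in the sources used here, and it holds no counts. Predicted sites and their coordinates came from the study's supplementary list.

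Labels were the text before the bracket, and members were labels on at least 2 lines. Members and gene lists were chosen with earlier results of these data known. Named genes were labels with at least 4 summits, list members with several summits, the 5 closest pairs, the 5 widest spreads and the 5 largest ratios. Other labels were named after their values were seen, for high summits with a CG number, to account for all labels, or in runs of neighbours. Of the 95 labels, 78 matched a symbol of the RefSeq gene table (Release 6, names only), 15 an older name, and CG14872 and fas were ambiguous. Positions relative to genes were not used here, and 1 label is not reported here by name. Python 3.11.15, numpy 2.4.6, scipy 1.17.1 and matplotlib 3.10.9 were used, and the scripts were tested on simulated data. Alternatives were the removal of summits below a fold of 3, merging within 200 or 1000 bp, joint labels given to each gene, omission of sick, chains within 10 kb, a reach of 50 bp and 1 mismatch in the core.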

Additional observations from a re-analysis of the deposited data

How the results depend on the processing

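Requiring a fold enrichment of at least 3 moved most values: 85 members at 36 labels, a median distance of 10460 bp between adjacent summits, 8.16% of these within 1 kb, a median fold enrichment of 4.18, a median ratio of strongest to weakest of 1.24, 8 transcription factor labels, 9 labels with a CG number and 12.9% of members on the X. Chains of summits within 10 kb, used in place of labels, gave a median distance of 2025 bp, 24% within 1 kb and a median spread of 3305 bp, which follows from the limit on distance. Counts of transcription factor and CG labels could not be given for chains. Merging summits within 1000 bp left 0% within 1 kb by construction and gave a median distance of 7670 bp, against 4850 bp. Allowing 1 mismatch in the core gave 84.9% of members. Sites with exactly 1 mismatch were about as frequent at members (42.9%) as at single summits (43.6%). Merging within 200 bp, giving joint labels to each gene and leaving out sick moved none of the 11 values computed, and a reach of 50 bp did not move the share with the core. No paired analysis was possible because the Col-IP, the mock-IP and the input are 1 library each. Without replicates or read counts, the error of a single summit's height is unknown.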

Other observations

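Some labels with several summits were next to each other in the order of the list along the chromosome arms. In 6 places, at least 3 neighbouring labels of the list all had several summits, which took in 22 labels. The longest such run, on 3L, was Best4, CG7255, Toll-6, CG33259, comm3 and CG7304, with 13 summits over 406170 bp. On 2L, CG17349, CG17350, CG10195 and sick followed each other with 15 summits over 533750 bp. In this run the last summit of CG17349 and the first of CG17350 lay 1520 bp apart, and the outer summits of the pair of labels were the high ones, with 7.07 and 6.24 against 2.57 and 2.53. Neighbours in the list can be far apart, and the run of pum, Cyp12e1 and hth covered 1553300 bp. Since 23.2% of the 409 labels had several summits, some runs arise without any clustering, and their expected number was not computed. These runs were picked after the values were seen and carry no test.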
